A study of Mus musculus with 10 samples.

Results

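The cell bodies of the vagus nerve's sensory fibres sit in 2 ganglia, the jugular ganglion, which arises from the neural crest, and the nodose ganglion, which arises from placodes of the embryonic ectoderm. In the mouse both are fused into 1 complex. Described here are 2 kinds of vagal neurons from this complex that differ both in ganglion and in Trpv1 status, namely Trpv1-positive jugular neurons and Trpv1-negative nodose neurons. They were chosen by their labels, which gave 4 of the 10 RNA sequencing libraries of the study, 2 per group. Trpv1 encodes the ion channel opened by capsaicin and noxious heat, and its expression marks many of the unmyelinated C-fibers that trigger pain, itch or cough. Nodose neurons without Trpv1 include low threshold mechanosensors of the viscera.

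All 4 libraries came from Trpv1-tdTomato mice, in which Cre recombinase driven by the Trpv1 gene switches on the red fluorescent protein tdTomato from the Rosa26 locus in cells that make, or once made, Trpv1. Red neurons were picked from the most rostral (jugular) tip and neurons without red fluorescence from the most caudal (nodose) tip of the complex, from the same 2 mice. No source gives the age or sex of the mice. Each Trpv1-positive jugular pool held 30 cells and each Trpv1-negative nodose pool 15 cells. Their cDNA was primed from the poly(A) tail, amplified and sequenced at 1 core. Ganglion, Trpv1 status and the number of cells differ together between these groups and cannot be told apart from these 4 pools alone. In 2 pools of 30 Trpv1-positive nodose neurons from the same mice, values are given for comparison. Pools of 1 group were not copies of each other, but nothing says which mouse each pool came from, so p-values measure the spread between pools, which may be partly technical. In a pool, fewer cells of a type and less RNA per cell cannot be told apart.

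The total count on genes was 148452506 to 167704327 per pool. Levels are given as CPM, which is the deposited count divided by the pool's DESeq2 size factor and rescaled by the typical library total, and they are not corrected for gene length, so they are compared between pools and not between genes. At this depth 3 counts, the smallest number told from 0 here, correspond to 0.0148 to 0.0166 CPM in these pools. At least 1 count was found for 12153 and 12434 genes in the jugular pools and for 12770 and 13029 genes in the nodose pools. The replicates were uneven: of 8252 genes that reached 10 CPM in a jugular pool, 18.6% were under 1 CPM in the other, and for the nodose pools it was 15.4% of 8565 genes.

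The labels were checked on Trpv1 itself (chromosome 11, 73234292 to 73261242 on GRCm38, the assembly also called mm10). Its level was 22.9 and 33.7 CPM in the Trpv1-positive jugular pools and 0.0443 and 0.0400 CPM in the Trpv1-negative nodose pools, so every jugular pool was above every nodose pool. Trpa1, the irritant receptor often found with Trpv1, was at 8.92 and 43.1 CPM against 0.0246 and 0.0150 CPM. The sodium channel genes Scn10a and Scn11a, widely used as markers of nociceptors, were present in both groups. Scn10a was at 177 and 433 CPM in the jugular pools and at 207 and 130.0 CPM in the nodose pools. All 11 sensory neuron markers checked (such as Prph, Uchl1 and Slc17a6) reached 10 CPM in both pools of at least 1 group, with summed levels of 15370 and 14020 CPM in jugular versus 14930 and 13800 CPM in nodose pools.

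Markers of most other cells were low, or overlapped between the groups in sum. The 16 satellite glia and Schwann cell markers summed to 3880 and 5341 CPM in the jugular and 4397 and 3684 CPM in the nodose pools, mostly from Apoe. Of these glial markers, 8 and 7 reached 10 CPM in the jugular pools and 10 and 8 in the nodose pools. Among the 12 tested, 2 had both jugular pools above both nodose pools and 3 the reverse, with a median log2 fold change of -0.014. As a single member, the glial regulator Sox10 was at 0.00554 and 0.0264 CPM in the jugular and 12.9 and 2.69 CPM in the nodose pools. Macrophage markers summed to at most 7.90 CPM and endothelial and mural markers to at most 4.27 CPM in any of the 4 pools. No count fell on the erythrocyte markers. Fibroblast markers summed to 39.5 and 6.15 CPM in the jugular and 18.3 and 23.1 CPM in the nodose pools. Of the 4 tested, 1 had both nodose pools above both jugular pools and 0 the reverse. It was Col3a1, without a count in the jugular pools and at 15.3 and 18.3 CPM in the nodose pools (DESeq2 adjusted p = 1.2e-08, edgeR adjusted p = 0.288). The 7 sympathetic neuron markers, which include the catecholamine enzymes Dbh and Th, summed to 57.1 and 137 CPM in jugular and to 322 and 270 CPM in the nodose pools, and the 4 tested had a median log2 fold change of -6.04. Among them Slc6a2 was at 0.670 to 1.43 CPM over the 4 pools, Gata3 had no count in any, and Dbh is described with its values further on. The part of these cells in the results was not tested.

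The question put to these pools was which genes distinguish Trpv1-positive jugular from Trpv1-negative nodose neurons. A gene was called different at a Benjamini-Hochberg adjusted p of at most 0.1 by the quasi-likelihood test of edgeR, a fold change of at least 2 and at least 10 CPM in both pools of at least 1 group. Of 11506 genes tested, 26 (0.226%) were called, 16 (0.139%) higher in Trpv1-positive jugular and 10 (0.0869%) higher in Trpv1-negative nodose neurons. An unadjusted p under 0.05 was found for 1490 genes. DESeq2, with a gene-wise spread drawn towards a common trend, called 235 genes (1.56% of the 15023 genes with a count) higher in jugular and 364 (2.42%) higher in nodose pools at the same thresholds, and 25 of the 26 genes were among these 599. With 2 pools a group, the smallest p that an exact permutation test allows is 0.333, and the calls therefore rest on a spread estimated over many genes. All log2 fold changes are jugular over nodose, with the standard error (SE) of the edgeR fit.

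**Figure D1:**
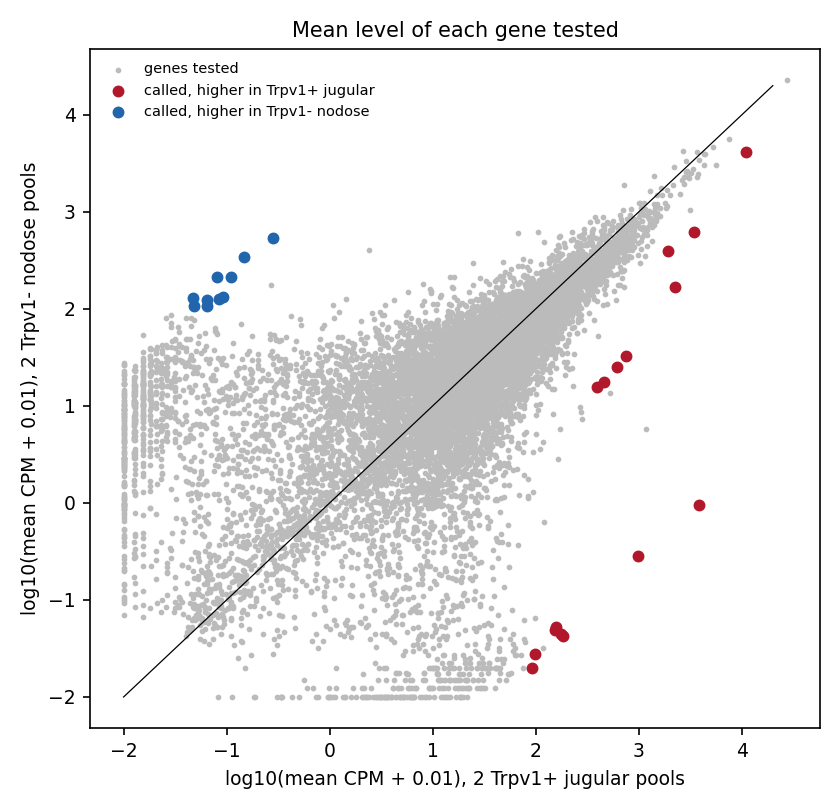
Mean level of each of the 11506 genes tested in the 2 Trpv1-positive jugular pools (horizontal axis, log10 of mean CPM + 0.01) and the 2 Trpv1-negative nodose pools (vertical axis, same scale), with the line of equal levels. The 16 genes called higher in jugular neurons are red and the 10 called higher in nodose neurons are blue. Most lie far from the line, and Sncg, Stmn1 and Fxyd2, which have high levels in both groups, lie nearest to it.

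Neuropeptide genes gave the clearest separation. Calca (chromosome 7, 114631478 to 114636357), which encodes calcitonin and the sensory peptide CGRP, was at 3754 and 3947 CPM in the jugular pools and at 0.851 and 1.04 CPM in the nodose pools. Its log2 fold change was 11.94 (SE 0.29, adjusted p = 6e-04). Tac1 (chromosome 6, 7554879 to 7565834), the precursor of substance P and neurokinin A, was at 1106 and 875 CPM against 0.280 and 0.265 CPM. The log2 fold change of Tac1 was 11.78 (SE 0.41, adjusted p = 0.00201). In both genes the nodose pools were 3 orders of magnitude under the jugular pools, and both were still called in the fit with a replicate block.

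Of 12 neuropeptide and Bdnf genes tested, Calca and Tac1 were called by edgeR, both higher in jugular, while DESeq2 called 4 higher in jugular and 2 higher in nodose pools. Calcb, which encodes the second CGRP, was at 1186 and 1172 CPM in the jugular and 0.684 and 10.8 CPM in the nodose pools (DESeq2 adjusted p = 7.86e-05, edgeR adjusted p = 0.288). Nmb, the gene of neuromedin B, was at 549 and 495 CPM against 5.76 and 21.4 CPM (DESeq2 adjusted p = 2.82e-04, edgeR adjusted p = 0.173). Neither passed edgeR's test, with adjusted p of 0.288 for Calcb and 0.173 for Nmb. The opposite order was seen for Penk, the enkephalin precursor, with 3 counts in 1 jugular pool and none in the other against 51.6 and 25.9 CPM in the nodose pools, a ratio of 4790 (95% exact counting interval 1640 to 23200). Cartpt, the precursor of the CART peptides, was also higher in both nodose pools, at 216 and 221 CPM against 58.1 and 38.1 CPM (DESeq2 adjusted p = 0.0945, edgeR adjusted p = 0.288). Bdnf and Scg2 overlapped between the groups.

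The 250 bases before the transcription start of Calca, which was the gene with the lowest adjusted p, and of Prdm12, the regulator with the largest fold change among the called regulators, are shown to give the sequence next to which the transcripts arise. They are RefSeq sequences of GRCm38.p6, 5′ to 3′ on the gene's own strand, at chr7:114636358-114636607 (minus strand) for Calca and chr2:31639787-31640036 (plus strand) for Prdm12. Capitals mark E boxes (CANNTG) and GC boxes (GGGCGG or its reverse complement).
Calca: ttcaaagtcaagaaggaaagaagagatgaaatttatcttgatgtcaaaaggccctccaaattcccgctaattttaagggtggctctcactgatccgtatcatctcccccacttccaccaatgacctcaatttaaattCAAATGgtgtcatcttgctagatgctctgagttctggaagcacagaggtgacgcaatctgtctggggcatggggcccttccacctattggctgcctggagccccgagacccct
Prdm12: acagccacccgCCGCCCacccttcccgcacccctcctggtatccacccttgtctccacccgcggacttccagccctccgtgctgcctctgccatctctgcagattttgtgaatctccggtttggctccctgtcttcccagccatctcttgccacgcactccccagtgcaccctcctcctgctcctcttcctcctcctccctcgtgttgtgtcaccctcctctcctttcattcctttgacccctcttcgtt

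An E box lies in the window of Calca and a GC box in that of Prdm12. Promoter windows were found for 19 of the 26 called genes. An E box was found in 9 of 13 windows of genes called higher in jugular and in 4 of 8 windows of genes called higher in nodose neurons, against 66.2% of all 32851 windows. A GC box was found in 6 of 13 and 3 of 8 windows, against 32.7% of all windows. The cyclic AMP response element (TGACGTCA, 1.55% of all windows) was in none of the 21 windows of called genes, and the homeodomain core pair TAATTA (4.84%) only in that of Tac1.

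Among genes of non-peptidergic and itch neurons 2 were called, both higher in jugular neurons. Mrgprd (chromosome 7, 145314835 to 145324086), a receptor that marks non-peptidergic nociceptors of the skin, was at 74.7 and 124 CPM in the jugular pools and 0.00984 and 0.0250 CPM in the nodose pools (log2 fold change 12.37, SE 1.39, adjusted p = 0.0848). Gna14, which encodes an alpha subunit of the Gq class, was at 154 and 198 CPM against 0.0246 and 0.0451 CPM (log2 fold change 12.23, SE 0.92, adjusted p = 0.0306). Of the 12 members tested 6 (50%) had both jugular pools above both nodose pools and 3 (25%) the reverse, among them P2rx3, beside 22.1% and 22.3% of all genes tested. DESeq2 called 5 higher in jugular and 1, Cysltr2, higher in nodose pools, beside 1.56% and 2.42% of all genes. Cysltr2, a receptor for cysteinyl leukotrienes, had 2 counts and 0 counts in the jugular pools and 11.6 and 23.1 CPM in the nodose pools, a ratio of 3200 (95% exact counting interval 886 to 26400). Lpar3, a lysophosphatidic acid receptor, was at 29.5 and 69.6 CPM in jugular versus 0.0295 and 0.0501 CPM in nodose pools (DESeq2 adjusted p = 4.42e-15, edgeR adjusted p = 0.288). Plxnc1, a semaphorin receptor, was at 176 and 118 CPM against 10.9 and 5.50 CPM (DESeq2 adjusted p = 8.51e-04, edgeR adjusted p = 0.280). So markers usually assigned to peptidergic and to non-peptidergic neurons were high in the same jugular pools of 30 cells, which does not say whether they share cells.

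The regulators of sensory neuron identity split by group. Prdm12 (chromosome 2, 31640037 to 31655795), a chromatin regulator needed for the formation of nociceptors, was at 177 and 193 CPM in the jugular pools and 0.0246 and 0.0400 CPM in the nodose pools. Its log2 fold change was 12.41 (SE 0.87, adjusted p = 0.0227). Etv1, an ETS family factor (chromosome 12, 38779380 to 38870484), showed the reverse, at 0.111 and 0.0897 CPM against 190 and 240 CPM, with a log2 fold change of -11.10 (SE 0.72, adjusted p = 0.0186). Of 26 regulators tested edgeR called 1 on the jugular side and 2 on the nodose side, and DESeq2 called 3 higher in jugular and 6 higher in nodose pools. Over all genes, edgeR called 0.139% and 0.0869% in these directions and DESeq2 1.56% and 2.42%. Both jugular pools were above both nodose pools for 12 regulators (46.2%) and the reverse held for 11 (42.3%), beside 22.1% and 22.3% of all genes.

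Further regulators had groups that did not overlap but missed edgeR's threshold. Nhlh2, a basic helix-loop-helix factor, was at 0.166 and 0.380 CPM in jugular versus 36.4 and 26.2 CPM in nodose pools (DESeq2 adjusted p = 1.59e-08, edgeR adjusted p = 0.288). Eya1, a co-activator that acts in placodes, was at 0.0277 and 0.0211 CPM against 38.0 and 44.6 CPM (DESeq2 adjusted p = 6.76e-20, edgeR adjusted p = 0.288). Tbx3 was at 0.0388 and 2.32 CPM against 26.1 and 38.6 CPM. Cited1 and Tshz1 were less even in the nodose neurons, since Cited1 was at 48.7 and 71.0 CPM in jugular versus 15.6 and 0.0300 CPM in nodose pools, and Tshz1 at 39.3 and 35.7 CPM against 0.0984 and 10.2 CPM. The pan-sensory factor Isl1 was found in every pool, at 33.8 and 54.7 CPM in jugular versus 125 and 119 CPM in nodose pools, as was Tlx3, whose groups overlapped.

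Hox genes, which encode homeodomain factors of position along the body axis, were mostly higher in the nodose pools. Hoxb5 (chromosome 11, 96303336 to 96306121) was at 0.127 and 0.148 CPM in the jugular and 297 and 392 CPM in the nodose pools (log2 fold change -11.33, SE 0.57, adjusted p = 0.00769). Its neighbours in the cluster showed the same order, with Hoxb6 at 0.0332 and 0.0422 CPM against 66.3 and 85.6 CPM and Hoxb4 at 0.0221 and 0.0211 CPM against 20.2 and 17.9 CPM. Hoxb6 (edgeR adjusted p = 0.129) and Hoxb4 (0.288) were called by DESeq2 only (adjusted p = 7.37e-23 and 1.96e-16). Of 10 Hox genes tested, 6 (60.0%) had both nodose pools above both jugular pools and 2 (20%) the reverse, against 22.3% and 22.1% of all genes tested. The median log2 fold change of the 10 was -3.30, beside 0.0178 over all genes tested. Hoxd1 went the other way in level, at 22.7 and 27.9 CPM in jugular against 13.3 and 0 CPM in nodose pools, and was not called by either tool.

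**Figure D2:**
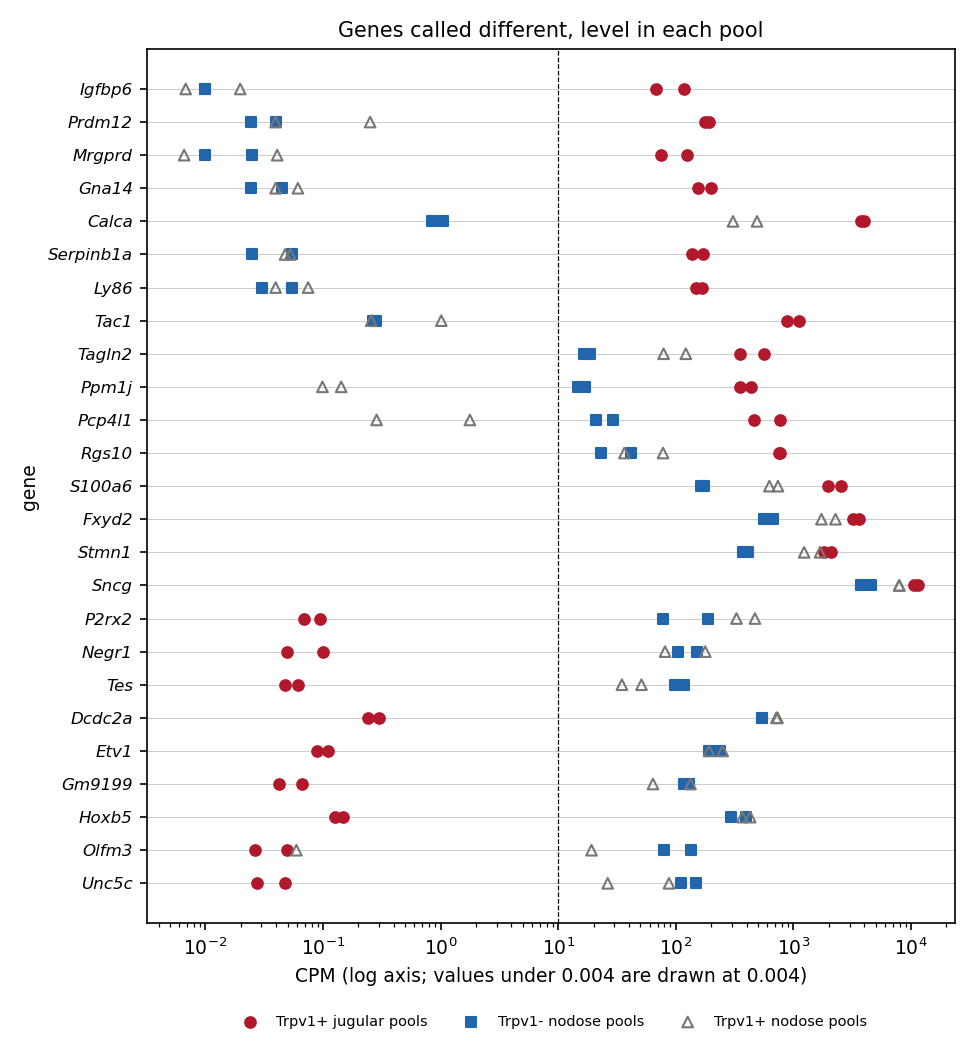
Level of 25 of the 26 called genes in each pool, in CPM on a log axis, for Trpv1-positive jugular pools (red circles), Trpv1-negative nodose pools (blue squares) and Trpv1-positive nodose pools (grey triangles), ordered by log2 fold change. The dashed line marks 10 CPM. Below it lie the nodose pools for the 8 uppermost genes and the jugular pools for all 9 nodose genes drawn, and the grey triangles lie nearer to the blue squares for 18 of the 25 genes.

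Of the other genes called higher in jugular neurons, 3 were near the floor in the nodose pools. Serpinb1a, an intracellular inhibitor of serine proteases, was at 170 and 139 CPM against 0.0541 and 0.0250 CPM (log2 fold change 11.87, SE 1.01, adjusted p = 0.0432). Ly86, which encodes a partner of a Toll-like receptor relative, was at 167 and 150 CPM against 0.0541 and 0.0300 CPM (log2 fold change 11.81, SE 0.95, adjusted p = 0.0362). Igfbp6, a binding protein of insulin-like growth factors, was at 118 and 67.2 CPM against 2 counts in each nodose pool, a ratio of 9290 (95% exact counting interval 3630 to 34100, adjusted p = 0.0725). The interval covers counting error only.

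The remaining 8 genes were graded, with clear levels on both sides. S100a6, a calcium-binding protein, was at 2522 and 1964 CPM in jugular versus 173 and 163 CPM in nodose pools (log2 fold change 3.69, SE 0.24, adjusted p = 0.0186). Fxyd2, the gamma subunit of the sodium-potassium ATPase, was at 3642 and 3187 CPM against 671 and 565 CPM (log2 fold change 2.42, SE 0.20, adjusted p = 0.0362). Stmn1, which destabilises microtubules, was at 2078 and 1803 CPM against 414 and 376 CPM (log2 fold change 2.25, SE 0.21, adjusted p = 0.0489). All these pools were well above the floor. Sncg, which encodes gamma-synuclein, was at 11480 and 10650 CPM against 4527 and 3749 CPM (log2 fold change 1.37, SE 0.15, adjusted p = 0.0725), and it was the 1 called gene that DESeq2 did not call (adjusted p = 0.381).

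The other graded genes were more than an order of magnitude apart. Rgs10, which speeds the switching off of G proteins, was at 764 and 753 CPM in jugular versus 23.3 and 41.9 CPM in nodose pools (log2 fold change 4.49, SE 0.41, adjusted p = 0.0489). Tagln2, an actin-binding protein, was at 565 and 351 CPM against 18.5 and 16.7 CPM, Ppm1j, a protein phosphatase, at 435 and 355 CPM against 14.6 and 16.9 CPM, and Pcp4l1, a relative of a calmodulin regulator, at 771 and 467 CPM against 29.4 and 20.8 CPM. Their log2 fold changes were 4.67 (adjusted p = 0.0496), 4.60 (0.0453) and 4.59 (0.0541).

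On the nodose side the purine receptor P2rx2 (chromosome 5, 110339812 to 110343212), an ATP-gated channel subunit, was at 0.0941 and 0.0686 CPM in the jugular and 78.2 and 187 CPM in the nodose pools. Its log2 fold change was -10.71 (SE 1.12, adjusted p = 0.0673). It was the 1 edgeR call among 9 purine receptors tested, beside 0.226% of all genes called. Both jugular pools were above both nodose pools for 2 of the 9 (22.2%) and the reverse held for 4 (44.4%), beside 22.1% and 22.3% of all genes. P2rx3, the subunit that forms channels alone or with P2rx2, was well expressed in both groups, at 179 and 235 CPM in jugular versus 283 and 335 CPM in nodose pools. P2rx6 had the reverse order, with 50.7 and 21.5 CPM in jugular pools against 3 counts and 1 count in nodose pools, a ratio of 3600 (95% exact counting interval 1410 to 13200, edgeR adjusted p = 0.288). The ADP receptor P2ry1 was at 16.6 and 27.4 CPM against 88.2 and 97.6 CPM (log2 fold change -2.13, SE 0.75, edgeR adjusted p = 0.328, DESeq2 adjusted p = 0.136), and the adenosine receptor Adora1 at 161 and 68.5 CPM against 33.2 and 30.8 CPM.

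Serotonin and nicotinic receptor genes, the ligand-gated channels that answer to serotonin and acetylcholine together with the G protein-coupled serotonin receptors, were mostly higher in nodose pools. Of 11 tested, 9 (81.8%) had both nodose pools above both jugular pools and 2 (18.2%) the reverse, beside 22.3% and 22.1% of all genes. Their median log2 fold change was -3.21. However, none was called by edgeR and 3 were called by DESeq2, all higher in nodose, beside 2.42% of all genes. Htr3a was at 103 and 31.5 CPM in jugular versus 545 and 674 CPM in nodose pools (log2 fold change -3.21, SE 0.64, DESeq2 adjusted p = 0.0478, edgeR adjusted p = 0.288). Htr3b was at 0.388 and 2.45 CPM against 102 and 151 CPM (log2 fold change -6.55, SE 1.26, DESeq2 adjusted p = 7.49e-05, edgeR adjusted p = 0.288). The nicotinic subunit gene Chrna3 was at 0.0443 and 0.0897 CPM against 84.8 and 42.8 CPM (DESeq2 adjusted p = 3.54e-15, edgeR adjusted p = 0.235). Their edgeR adjusted p was 0.288, 0.288 and 0.235. Chrna6 had the reverse order, at 201 and 33.3 CPM against 0.0492 and 8.39 CPM, and was not called.

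An axon guidance gene was also called on the nodose side. Unc5c (chromosome 3, 141465216 to 141834924), a netrin receptor, was at 0.0277 and 0.0475 CPM in jugular versus 111 and 150 CPM in nodose pools (log2 fold change -11.79, SE 1.05, adjusted p = 0.0473). Of 37 guidance genes tested it was the 1 call by edgeR, which called 0.226% of all genes. Both nodose pools were above both jugular pools for 15 (40.5%) and the reverse held for 5 (13.5%), beside 22.3% and 22.1% of all genes. Slit2, a ligand of Robo receptors, had 2 counts in each jugular pool against 48.1 and 21.2 CPM in nodose pools, a ratio of 3220 (95% exact counting interval 1260 to 11800, edgeR adjusted p = 0.288). Robo2 and Plxna4 overlapped between the groups. Plxnd1 was at 33.6 and 14.7 CPM in jugular against 0.413 and 0.00501 CPM in nodose pools (DESeq2 adjusted p = 0.00987, edgeR adjusted p = 0.429).

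The last 5 nodose calls were all under 0.3 CPM in both jugular pools. Dcdc2a, a doublecortin domain protein of microtubules, was at 0.299 and 0.243 CPM against 538 and 536 CPM (log2 fold change -10.99, SE 0.46, adjusted p = 0.00402), the lowest adjusted p of the nodose side. Negr1, a cell adhesion protein of neurons, was at 0.0498 and 0.1003 CPM against 151 and 104 CPM (log2 fold change -10.77, adjusted p = 0.0586). Olfm3, an olfactomedin, was at 0.0498 and 0.0264 CPM against 79.5 and 135 CPM (log2 fold change -11.48, adjusted p = 0.0725). The focal adhesion protein gene Tes (log2 fold change -10.98, adjusted p = 0.0607) and the predicted gene Gm9199 (-11.18, 0.0496) had the same order of levels.

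Among 12 TRP channel genes tested none was called by edgeR, and DESeq2 called 3, all higher in jugular pools. One was Trpv1, on which the cells were picked (log2 fold change 9.32, SE 2.29, edgeR adjusted p = 0.288). Trpc6 was at 53.0 and 34.4 CPM in jugular versus 0.689 and 0.0901 CPM in nodose pools (log2 fold change 6.78, SE 2.01, DESeq2 adjusted p = 7.56e-05, edgeR adjusted p = 0.288). Trpv2 was found in all 4 pools at 53.5 to 91.0 CPM, and Trpm4 at 32.8 and 18.5 CPM in jugular versus 9.39 and 11.5 CPM in nodose pools. Trpa1 reached 10 CPM in only 1 jugular pool and could not be called.

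Mechanosensory and acid-sensing channels had members with higher levels in either group. Piezo2, the main channel of touch and of the stretch sense, was at 56.7 and 104 CPM in jugular versus 13.7 and 10.4 CPM in nodose pools (log2 fold change 2.69, SE 0.91, edgeR adjusted p = 0.316, DESeq2 adjusted p = 0.0415). Asic3, an acid-sensing channel, was at 84.7 and 49.8 CPM against 0.684 and 0.0400 CPM (log2 fold change 7.50, SE 2.0, edgeR adjusted p = 0.288, DESeq2 adjusted p = 1.76e-04). Tmem150c was the reverse, at 0.0277 and 0.00528 CPM against 27.9 and 28.9 CPM (DESeq2 adjusted p = 1.93e-12, edgeR adjusted p = 0.288). None of the 12 tested was called by edgeR, and 4 (33.3%) had both jugular pools above and 5 (41.7%) both nodose pools above, beside 22.1% and 22.3% of all genes.

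**Figure D3:**
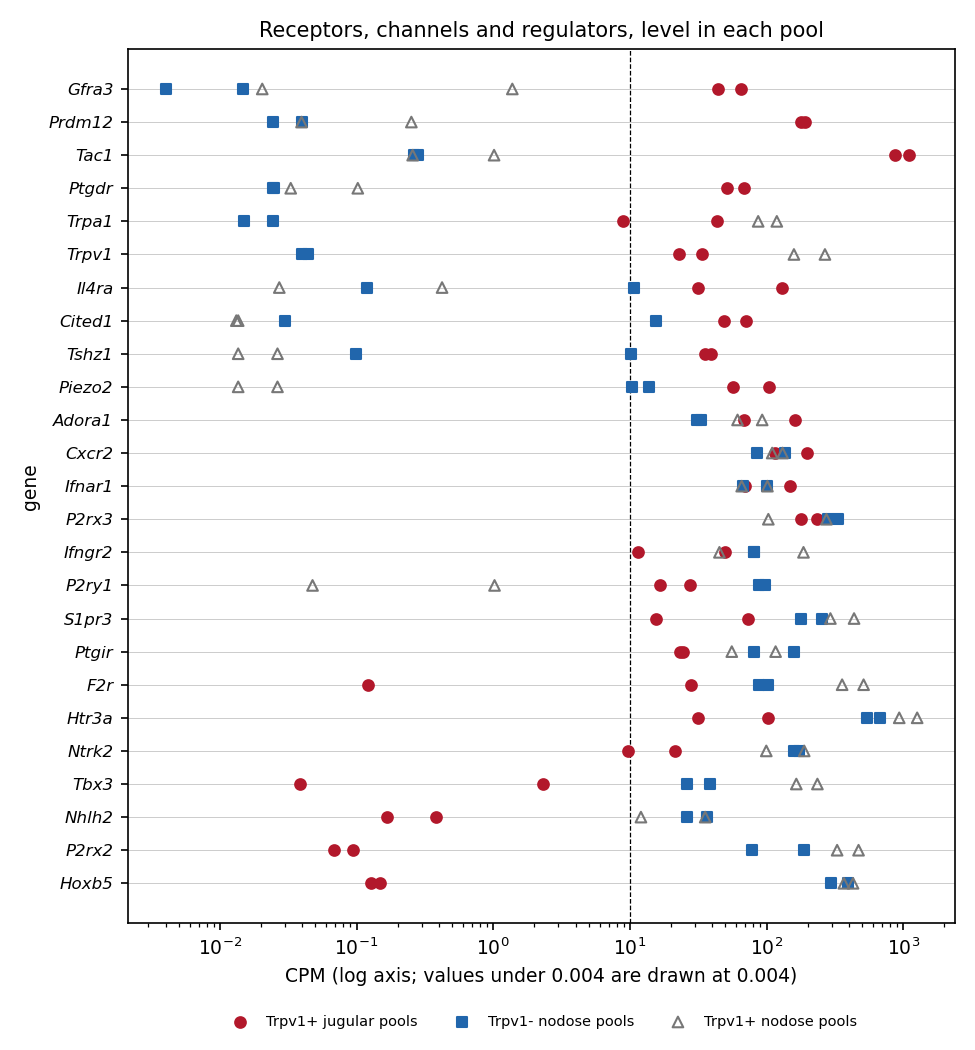
Level of 25 receptor, channel, peptide and regulator genes in each pool, in CPM on a log axis, ordered by log2 fold change, for Trpv1-positive jugular (red circles), Trpv1-negative nodose (blue squares) and Trpv1-positive nodose pools (grey triangles); values under 0.004 CPM are drawn at 0.004. Gfra3 (not called by edgeR), Prdm12 and Tac1 at the top and Hoxb5 and P2rx2 at the bottom have wide gaps between red and blue, while Cxcr2 and Ifnar1 in the middle overlap.

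Voltage-gated channels form action potentials and control transmitter release. None of 12 sodium, 12 calcium or 57 potassium and HCN channel genes was called by edgeR, which called 0.226% of all genes, while DESeq2 called 3 sodium (1 higher in jugular, 2 in nodose pools), 1 calcium (in nodose) and 6 potassium and HCN channel genes (3 and 3). Of the 57, 12 (21.1%) had both jugular pools above both nodose pools and 18 (31.6%) the reverse, of the sodium channels 16.7% and 33.3%, and of the calcium channels 25% each way. Over all genes tested the shares were 22.1% and 22.3%. Scn9a was at 182 and 143 CPM in jugular versus 206 and 148 CPM in nodose pools. Scn4b, an auxiliary subunit of sodium channels, was at 106 and 81.9 CPM against 6.51 and 0.140 CPM (log2 fold change 4.79, SE 1.85, DESeq2 adjusted p = 0.0783, edgeR adjusted p = 0.368). Among potassium channels Kcnh8 was at 0.0111 and 0.0211 CPM against 53.3 and 108 CPM, with the lowest edgeR adjusted p of those named here (0.125). Kcna6 overlapped between the groups.

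Of 14 neurotrophic factor receptors none was called by edgeR, and 7 (50%) had both jugular pools above both nodose pools and 2 (14.3%) the reverse, beside 22.1% and 22.3% of all genes. Gfra3, the receptor of artemin, was at 44.2 and 64.5 CPM in jugular pools against 3 counts and 0 counts in nodose pools, a ratio of 7340 (95% exact counting interval 2510 to 35600, edgeR adjusted p = 0.288). Ntrk2, the receptor of brain-derived neurotrophic factor, had the reverse order, at 9.72 and 21.2 CPM against 173 and 159 CPM (log2 fold change -3.48, SE 0.66, DESeq2 adjusted p = 0.00785, edgeR adjusted p = 0.288). Ret was at 348 and 213 CPM in jugular versus 200 and 279 CPM in nodose pools.

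Of 36 receptors for inflammatory mediators 15 (41.7%) had both nodose pools above both jugular pools and 5 (13.9%) the reverse, beside 22.3% and 22.1% of all genes. None was called by edgeR. The prostaglandin receptors went both ways. Ptgdr, a receptor of prostaglandin D2, was at 68.5 and 51.5 CPM in jugular versus 0.0246 and 0.0250 CPM in nodose pools (log2 fold change 11.16, SE 1.72, edgeR adjusted p = 0.186, DESeq2 adjusted p = 4.48e-22). Ptger4, a receptor of prostaglandin E2, had 2 counts and 1 count in jugular pools against 18.9 and 60.6 CPM in nodose pools, a ratio of 4880 (95% exact counting interval 1670 to 23600, edgeR adjusted p = 0.288). Ptgir, the prostacyclin receptor, was at 23.4 and 24.5 CPM against 80.7 and 158 CPM (edgeR adjusted p = 0.288). The sphingosine-1-phosphate receptor S1pr3 was at 73.7 and 15.6 CPM against 178 and 255 CPM and the thrombin receptor F2r at 28.1 and 0.121 CPM against 103 and 88.0 CPM, while Cxcr2 and Ifnar1 overlapped between the groups.

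Several receptors of transmitters and gut signals were at higher levels in nodose pools, without an edgeR call in any of their 4 lists. Gpr65, a proton-sensing receptor, was at 0.0166 and 0.0211 CPM in jugular versus 51.9 and 89.6 CPM in nodose pools (log2 fold change -11.88, SE 1.60, edgeR adjusted p = 0.135, DESeq2 adjusted p = 3.41e-20). The glutamate receptor subunit Gria2 was at 3.71 and 4.76 CPM against 80.3 and 167 CPM (log2 fold change -4.92, SE 0.84, edgeR adjusted p = 0.255, DESeq2 adjusted p = 3.79e-05). The cannabinoid receptor Cnr1 was at 12.3 and 6.6 CPM against 80.3 and 238 CPM (DESeq2 adjusted p = 0.00703, edgeR adjusted p = 0.288). Both nodose pools were above both jugular pools for 40.0% of 25 glutamate and GABA receptors (8.0% the reverse). The share was 60.0% (0% the reverse) for the 5 tested members of the opioid and cannabinoid list. That list also holds the GABA-B subunit genes Gabbr1 and Gabbr2, which are counted among the GABA receptors too. It was 42.9% of 7 gut hormone and satiety receptors (28.6% the reverse). For 11 genes of transmitter synthesis and transport it was 36.4% (9.09% the reverse), beside 22.3% (22.1% the reverse) of all genes.

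Enzymes of catecholamine synthesis differed in pattern. Dbh, which makes noradrenaline, had 2 counts in each jugular pool against 22.5 and 52.4 CPM in nodose pools, a ratio of 3450 (95% exact counting interval 1350 to 12700). Ddc, the decarboxylase before it, had 2 counts and 0 counts against 82.5 and 25.6 CPM, a ratio of 10000 (95% exact counting interval 2780 to 82900). Th, the first enzyme of the path, was at 55.9 and 136 CPM in jugular versus 45.3 and 48.1 CPM in nodose pools. The edgeR adjusted p was 0.288 for Dbh and for Ddc.

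**Figure D4:**
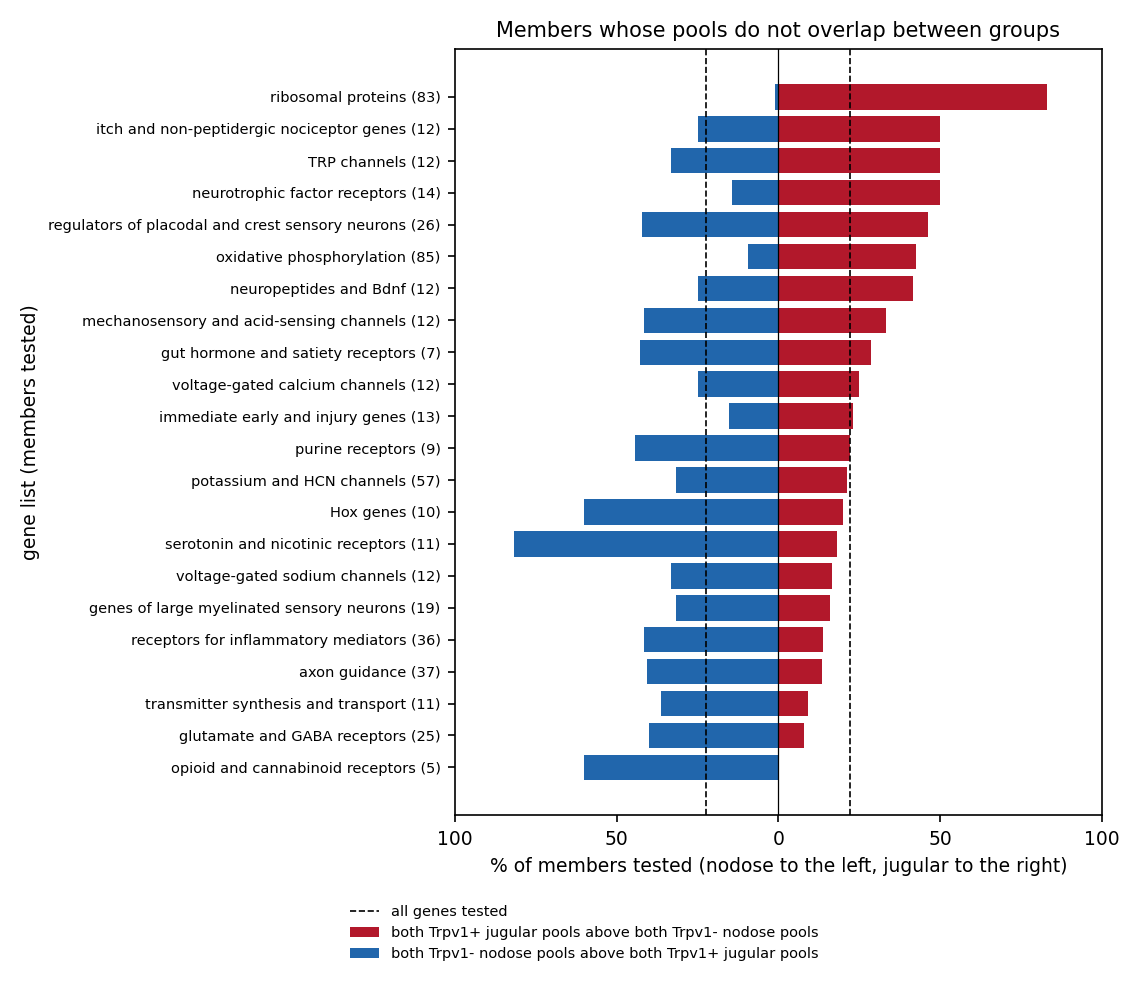
Share of the tested members of each gene list whose pools do not overlap between the groups, in percent, with both Trpv1-positive jugular pools higher to the right (red) and both Trpv1-negative nodose pools higher to the left (blue), ordered by the red bar; the number of members tested stands in brackets. The dashed lines mark all genes tested (22.1% and 22.3%), and the ribosomal proteins reach 83.1% to the right and the serotonin and nicotinic receptors 81.8% to the left.

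Of 19 genes of large myelinated sensory neurons none was called by edgeR and 1, Scn4b, by DESeq2. Both jugular pools were above both nodose pools for 3 (15.8%) and the reverse held for 6 (31.6%), beside 22.1% and 22.3% of all genes. The neurofilament genes were high in all 4 pools, with Nefl at 2485 and 3018 CPM in jugular versus 2123 and 2410 CPM in nodose pools and Nefm at 1049 and 1064 CPM against 1128 and 1067 CPM. Nefh was at 307 and 395 CPM against 685 and 574 CPM (edgeR adjusted p = 0.288). In the Trpv1-positive nodose pools Nefl was at 1005 and 1420 CPM.

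Ribosomal protein genes had a small shift shared by most members. Of 83 tested, 69 (83.1%) had both jugular pools above both nodose pools and 1 (1.20%) the reverse, beside 22.1% and 22.3% of all genes. Their median log2 fold change was 0.68, and none was called by either tool. Scaling matters here, because plain library totals moved the median over all genes tested from 0.0178 to -0.178. With plain totals 58 (69.9%) of the ribosomal protein genes were higher in both jugular pools, beside 17.3% of all genes. Rpl13 was at 1486 and 1418 CPM in jugular versus 896 and 711 CPM in nodose pools. The genes of oxidative phosphorylation gave no direction that held under both scalings, with 36 of 85 higher in both jugular and 8 higher in both nodose pools, but 15 and 14 with plain totals. Immediate early and injury genes had no call by edgeR among 13 tested and 1 by DESeq2, the nuclear receptor gene Nr4a1, at 0.0166 and 0.0581 CPM in jugular versus 12 and 31.3 CPM in nodose pools (DESeq2 adjusted p = 2.51e-09, edgeR adjusted p = 0.288). Jun and Fos overlapped between the groups. Of the 13, 23.1% had both jugular pools above both nodose pools and 15.4% the reverse, beside 22.1% and 22.3% of all genes.

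Near-complete presence in 1 group and absence in the other was found for 128 genes on one side and 213 on the other. The 128 genes reached 10 CPM in both jugular pools and stayed under 1 CPM in both nodose pools, and edgeR called 7 of them and DESeq2 126. Of the 213 genes with the reverse pattern edgeR called 10 and DESeq2 212. Both sets were chosen by their gap in these same pools, so these calls are no separate evidence. In these directions DESeq2 called 1.56% and 2.42% of all genes. Such gaps also occurred within groups: of genes at 10 CPM in a pool, 18.6% (jugular) and 15.4% (nodose) were under 1 CPM in the other pool. By contrast, 4099 genes were at 10 CPM or more in all 4 pools, and 3130 of them were under 2-fold apart. Low values were rarely 0, since no count at all on the low side was seen for 4 of the 128 and 9 of the 213 genes.

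The Trpv1-positive nodose pools share the ganglion with one group and the reporter with the other. A gene was placed with the group whose mean log2(CPM + 1) was nearer, where both pools did so. Of the 16 genes called higher in jugular neurons, 10 were placed with the Trpv1-negative nodose pools, 5 (Calca, Fxyd2, S100a6, Sncg and Stmn1) with the jugular pools and 1 (Tagln2) was split. Of the 10 genes called higher in nodose neurons, 9 were placed with the Trpv1-negative nodose pools and 1 (Olfm3) was split. Among genes at least 2-fold apart but not called, 34.4% of 1286 higher in jugular and 34.1% of 1441 higher in nodose pools were placed with the Trpv1-negative nodose pools, 27.2% and 26.2% with the jugular pools, and the others were split.

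In 1 edgeR fit to all 6 pools, which reuses the libraries of the comparison above, 11 of the 16 jugular genes and 9 of the 10 nodose genes passed an adjusted p of 0.1 between the Trpv1-positive pools of the 2 ganglia, as did 0.577% of the 12314 genes tested. The shared jugular libraries make these counts no independent evidence. Between Trpv1-positive and Trpv1-negative nodose neurons 5 of the 16 (Calca, Fxyd2, Ppm1j, S100a6 and Stmn1) and 0 of the 10 did, as did 0.122% of all genes. Calca was intermediate, at 307 and 491 CPM in the Trpv1-positive nodose pools, lower than in jugular (log2 difference 3.32, adjusted p = 0.00948) and higher than in Trpv1-negative nodose pools (8.62, adjusted p = 0.00116). Ppm1j was lower there than in either group, at 0.143 and 0.0990 CPM (adjusted p = 0.0231 against Trpv1-negative nodose). Pcp4l1 at 0.286 and 1.77 CPM (adjusted p = 0.375 against Trpv1-negative nodose) and Piezo2 at 0.0136 and 0.0264 CPM were also under the levels of the 4 pools described here. Prdm12 was at 0.252 and 0.0396 CPM, beside the Trpv1-negative nodose pools.

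Of the 128 genes on the jugular side, 5 were at 10 CPM or more in both Trpv1-positive nodose pools as well and 69 under 1 CPM in both. The 5 were Trpv1, Vamp8, Aqp1, Adck3 and Ccdc61. In the capsaicin-selected jugular pools Ccdc61 had no count and Aqp1 was at 23.0 and 0.118 CPM, while the other 3 were at 8.98 CPM or more in both. Vamp8, a vesicle fusion protein, was at 60.2 and 61.0 CPM in jugular, 0.0197 and 0.020 CPM in Trpv1-negative nodose and 24.3 and 52.1 CPM in Trpv1-positive nodose pools (edgeR adjusted p = 0.179 in the main comparison, DESeq2 adjusted p = 7.80e-23). Aqp1, a water channel, was at 11.9 and 49.7 CPM, 0 and 0.00501 CPM, and 34.3 and 22.6 CPM in the same order of groups. Of the 213 genes on the nodose side, 54 were at 10 CPM or more in both Trpv1-positive nodose pools and 54 under 1 CPM in both. Penk, Gpr65, Dbh, Kcnk1 and Cacng5 were among the latter, and were thus under 1 CPM in the 4 pools picked as Trpv1-tdTomato-positive, although Penk reached 25 CPM in 1 capsaicin-selected jugular pool.

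Jugular neurons picked from wild-type mice for their response to capsaicin, sequenced at another core and entered in no fit, had 15 of the 16 jugular genes at 10 CPM or more in both of their pools, and Igfbp6 without a count in both. Of the 10 nodose genes 7 were under 1 CPM in both of those pools. The shares of all genes at these levels in those pools were not counted, so neither count can be set against them. The exceptions were Negr1 at 14.4 and 11.1 CPM, Etv1 at 0.326 and 94.6 CPM and Tes at 0.0363 and 2.35 CPM. P2rx2, a P2X receptor gene, was at 0.218 and 0.0784 CPM, which is not independent of how those neurons were picked.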

How the data were processed

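The authors picked the neurons by hand, made cDNA with the SMARTer Ultra Low Input kit, sequenced it on an Illumina instrument, aligned the reads to mm10 with TopHat2 2.0.9 and Bowtie2 2.1.0.0 and counted them with HTSeq. The deposited values are raw counts per gene symbol for 24421 genes; the gene annotation and the use of strand are not given in the sources used here, so antisense and near-identical genes are uncertain. Amplified reads without molecular identifiers are not independent molecules, so intervals cover counting error only. 27 rows carry month-like symbols and were kept apart.

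Groups and replicate numbers came from the sample titles. The members and gene lists were chosen with earlier results of these data known, and the named genes follow a rule: up to 15 called genes per direction by fold change, called or high members of each list, and a set of receptors, channels and regulators. Sncg, Vamp8, Aqp1, Adck3, Ccdc61, Sox10, Apoe, Slc6a2, Gata3 and Col3a1 were added after their values were seen. The 4 pools were fitted with edgeR 4.0.16 in R 4.3.3 (TMM, filterByExpr, estimateDisp, glmQLFit, glmQLFTest, Benjamini-Hochberg adjustment); SE is the log2 fold change over the square root of F. CPM used DESeq2 1.42.0 size factors over the 6 pools of the Trpv1-tdTomato selection. Scripts were tested on simulated data. At the spread of the real pools, a larger share of DESeq2's calls than of edgeR's fell on unchanged genes there. Genes called by DESeq2 only are therefore less certain. Alternatives were DESeq2 with and without its normal prior, other scalings, no filters, a fit of 6 pools, a replicate block, and leaving out each pool. Deviations of same-numbered pools from their group means correlated at r = 0.0186 across 6659 genes, which gives no pairing by number. Positions are from GENCODE vM21 on GRCm38. Some genes are not reported here.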

Additional observations from a re-analysis of the deposited data

How the results depend on the processing

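All 26 called genes kept their direction in each of the 14 alternatives run, and none of 84 single genes with a recomputed fold change reversed, but the median over all genes, 0.0178, was -0.178 with plain totals, -0.0734 with DESeq2 and -0.425 to 0.187 when 1 pool was left out. The 26 genes were called for their gap in these same pools, so a kept direction is no separate evidence. The alternatives without the CPM minimum and with CPM scaled within the 4 pools reuse the main fit, so no direction could change there. The count of called genes depended on the tool: DESeq2 called 599 genes (235 higher in jugular, 364 in nodose, 62 list members) and 571 with its normal prior (223, 348 and 59), and the adjusted p of the 26 by DESeq2 ranged from 7.76e-38 to 0.381. Without the filter on low counts edgeR called 47 genes (29 and 18), among them all 26. With the replicate block, although the numbers did not pair pools, edgeR called 2 genes, Calca and Tac1 (2 higher in jugular, 0 in nodose, 2 list members). Leaving out each of the 4 pools in turn, with the lone pool assumed to vary like the other group, left 1 to 2 genes called in all, 1 to 2 higher in jugular, 0 to 0 higher in nodose and 1 to 2 list members, so the calls rest on all 4 pools: without either jugular pool Calca and Tac1 were called, without the first nodose pool Calca, and without the second nodose pool Calca and Calcb, which is not among the 26. RLE scaling called 27 genes, plain totals 24, the 6-pool fit 30 (22 shared), and 26 were called without the CPM minimum, without the ribosomal RNA gene Rn45s, and with CPM scaled within the 4 pools, which was added after seeing the data. Depth limits what can be said of levels under 0.0148 to 0.0166 CPM, the level of 3 counts.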

Other observations

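Where a gene was at 10 CPM or more in both pools of 1 group and under 1 CPM in both pools of the other, the low level is small by that choice, and its share of the high one was broadly spread. For the 128 genes high in jugular neurons the nodose level had a median of 5.21 per 10000 of the jugular level (quartiles 2.32 and 36.9), and for the 213 genes high in nodose neurons the jugular level had a median of 8.15 per 10000 (quartiles 3.75 and 50.9). Among the called genes of these sets it was 1.98 (1.07 to 2.75 over 7 genes) and 4.53 (2.89 to 6.13 over 10 genes). Calca, at 0.851 and 1.04 CPM in the nodose pools, is not in the first set, since 1 of its nodose pools was over 1 CPM. The source of the low counts was not tested.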
